A study of Mus musculus with 19 samples.

Results

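The 10 genes described here belong to the transcriptional arm of the Hippo pathway and were measured in mouse induced pluripotent stem cells: the targets Ccn1, Ccn2, Thbs1, Ankrd1, Amotl2 and Lats2, the coactivators Yap1 and Wwtr1, and the DNA-binding factors Tead1 and Tead4. They were taken by name from a table of 52143 genes, all 10 were found, and all 10 were among the 19700 genes that passed the filter on low counts and were tested. Induced pluripotent stem cells are body cells returned to a state from which every tissue can form. These were made from fibroblasts of embryos at day 14.5, whose parents were heterozygous for the db allele of the leptin receptor gene Lepr, with a STEMCCA lentivirus carrying mouse Oct4, Sox2, Klf4 and cMyc, so every line compared carries the same reprogramming factors. There were 2 corrected lines (db/Corr, 4 libraries), in which the mutation of a db/db line had been repaired with CRISPR-Cas9, 4 db/db lines homozygous for the mutation (8 libraries) and 4 wild type control lines (7 libraries). The labels do not say which db/db line was corrected or whether a line is 1 clone.

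The labels name the db/db lines adb_db5, adb_db7, bdb_db5 and bdb_db7 (lines 1 to 4) and the control lines aB6_A5, aB6_B1, bB6_A5 and bB6_B1 (lines 1 to 4), so that an a line and a b line share each of the names db5, db7, A5 and B1. Libraries of an a and a b line of 1 name, compared only at the same duplicate number, differed by a coefficient of variation of 2.07% to 10.6% over genes. Duplicate libraries of 1 line, which differ in number or letter, differed by 3.55% to 7.51%. Libraries of 1 corrected line and the other differed by 2.25% to 6.35%, whereas libraries of other names differed by 16% to 28.5%. The line was the replicate, so p-values measure the spread between lines of which several are near copies. Libraries held 27333914 to 41203703 estimated counts. The predicted gene Gm42418 took 4.81% of the counts in the second library of db/db line 2 and 0.514% in the first. In the libraries of all other lines it took 0.0688% to 0.150%. Lepr itself was low, at 0.606 to 0.718 CPM (counts scaled to a common library total with edgeR's TMM factors) in corrected lines, 0.186 to 0.371 CPM in the db/db lines and 0.348 to 0.460 CPM in control lines, and its level does not check the mutation. Pou5f1, the defining transcription factor of pluripotent cells, had 1287 and 1299 CPM in corrected lines, 1444 to 1604 CPM in the db/db lines and 1470 to 1521 CPM in control lines. Both corrected lines were thus below all others. Pou5f1 encodes Oct4, which the vector also carries, and the counts do not separate the copies.

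The Hippo pathway is a kinase cascade in which the LATS kinases phosphorylate YAP (Yap1) and TAZ (Wwtr1) and keep them in the cytoplasm. Unphosphorylated YAP and TAZ enter the nucleus and, having no DNA-binding domain of their own, act through the TEAD factors on genes such as Ccn1, Ccn2 and Ankrd1. Several targets feed back on the pathway, among them Lats2 and Amotl2, whose products restrain YAP. In the early mouse embryo TEAD4 and YAP are known for setting the outer cells on the path to trophectoderm. RNA levels do not show where YAP and TAZ proteins are or whether they are phosphorylated.

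The promoters of 4 targets that were highest in the corrected lines are shown because they hold the core motif bound by TEAD factors. Each is the stretch from 250 bases before to 50 bases after a RefSeq transcript start on the GRCm38.p6 build, read 5′ to 3′ on the gene's strand, and capitals mark GGAATG or its reverse complement CATTCC.
Ccn1: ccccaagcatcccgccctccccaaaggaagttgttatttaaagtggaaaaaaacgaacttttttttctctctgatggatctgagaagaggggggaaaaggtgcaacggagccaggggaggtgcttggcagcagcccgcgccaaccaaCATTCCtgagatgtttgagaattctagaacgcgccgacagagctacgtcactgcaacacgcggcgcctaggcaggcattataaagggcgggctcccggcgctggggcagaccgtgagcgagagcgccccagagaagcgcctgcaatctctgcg
Ankrd1: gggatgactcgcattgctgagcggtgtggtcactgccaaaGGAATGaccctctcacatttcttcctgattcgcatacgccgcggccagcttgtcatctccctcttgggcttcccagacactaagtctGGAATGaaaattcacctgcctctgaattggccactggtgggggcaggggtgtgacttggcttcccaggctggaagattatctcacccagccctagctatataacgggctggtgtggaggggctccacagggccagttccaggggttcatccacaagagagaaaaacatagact
Amotl2: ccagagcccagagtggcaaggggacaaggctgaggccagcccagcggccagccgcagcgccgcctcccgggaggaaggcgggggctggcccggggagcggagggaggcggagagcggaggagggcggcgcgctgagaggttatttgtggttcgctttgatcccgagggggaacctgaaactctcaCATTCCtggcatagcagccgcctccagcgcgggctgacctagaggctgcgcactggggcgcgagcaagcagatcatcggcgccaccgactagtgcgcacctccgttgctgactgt
Lats2: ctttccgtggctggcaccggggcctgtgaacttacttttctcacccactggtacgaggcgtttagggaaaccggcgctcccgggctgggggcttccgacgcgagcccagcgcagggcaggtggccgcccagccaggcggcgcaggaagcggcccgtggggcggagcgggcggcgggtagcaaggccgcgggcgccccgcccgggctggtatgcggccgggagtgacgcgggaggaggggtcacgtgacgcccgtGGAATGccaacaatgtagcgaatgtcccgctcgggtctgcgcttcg
These windows lie at chr3:145649936-145650235 (Ccn1, minus strand), chr19:36119795-36120094 (Ankrd1, minus strand), chr9:102717554-102717853 (Amotl2, plus strand) and chr14:57746074-57746373 (Lats2, minus strand). The motif began at -103 in Ccn1 and at -65 in Amotl2, both as CATTCC. It began at -210 and at -123 in Ankrd1 and at 4 in Lats2, as GGAATG. The window of a further Lats2 start held none. Yap1 held it at -141, and the windows of 2 Wwtr1 starts, which overlap, held the same site at -170 and at -136. RefSeq windows were at hand for 6 of the 10 genes, and Ccn2, Thbs1, Tead1 and Tead4 are named only. Of all 32851 windows of this length, 14.7% held the motif on either strand. The CArG box bound by SRF, a 10-base motif, was searched on both strands too and was in 1.63% of all windows and in none of these. A match of letters is a description, not a binding site.

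In the comparison of corrected with db/db lines, 6 of the 10 genes rose (Ccn1, Ankrd1, Amotl2, Lats2, Yap1 and Wwtr1) and 0 fell at an adjusted p under 0.05 (edgeR, quasi-likelihood F-test, Benjamini-Hochberg over all tested genes). Of all 19700 genes, 18.7% rose and 18.0% fell. The same 6 genes and Tead1, 7 in all, rose and 0 fell in corrected against control lines, where 16.2% of all genes rose and 17.0% fell. In db/db against control lines Lats2 and Tead1 rose and Ccn1 fell, against 7.41% of all genes that rose and 9.5% that fell. These comparisons share lines, so they are not independent of each other. The lines of both groups did not overlap for 8 of the 10 genes in corrected against db/db (60.6% of all genes), for 8 in corrected against control (61.7%) and for 4 in db/db against control (23.3%). The median log2 fold change of the 10 genes was 0.58, 0.61 and -0.09 in these 3 comparisons, beside 0.02, -0.01 and -0.00 over all tested genes.

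The corrected lines limit these counts. With either of the corrected lines left out, that group holds 1 line, and fewer genes were called, both of the 10 and of all genes. With libraries summed per shared name, giving 2 units a group, 3 genes (Ccn1, Ankrd1 and Lats2) rose against db/db and 2 (Lats2 and Wwtr1) against control. In db/db against control 0 of the 10 were called. Of all genes tested in that fit, 15.5%, 12.1% and 0.161% were called in these 3 comparisons. At an unadjusted p under 0.05, 3 of the 10 and 15.9% of all genes passed in db/db against control. Genotype and any difference in culture or handling between the groups cannot be told apart.

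**Figure D1:**
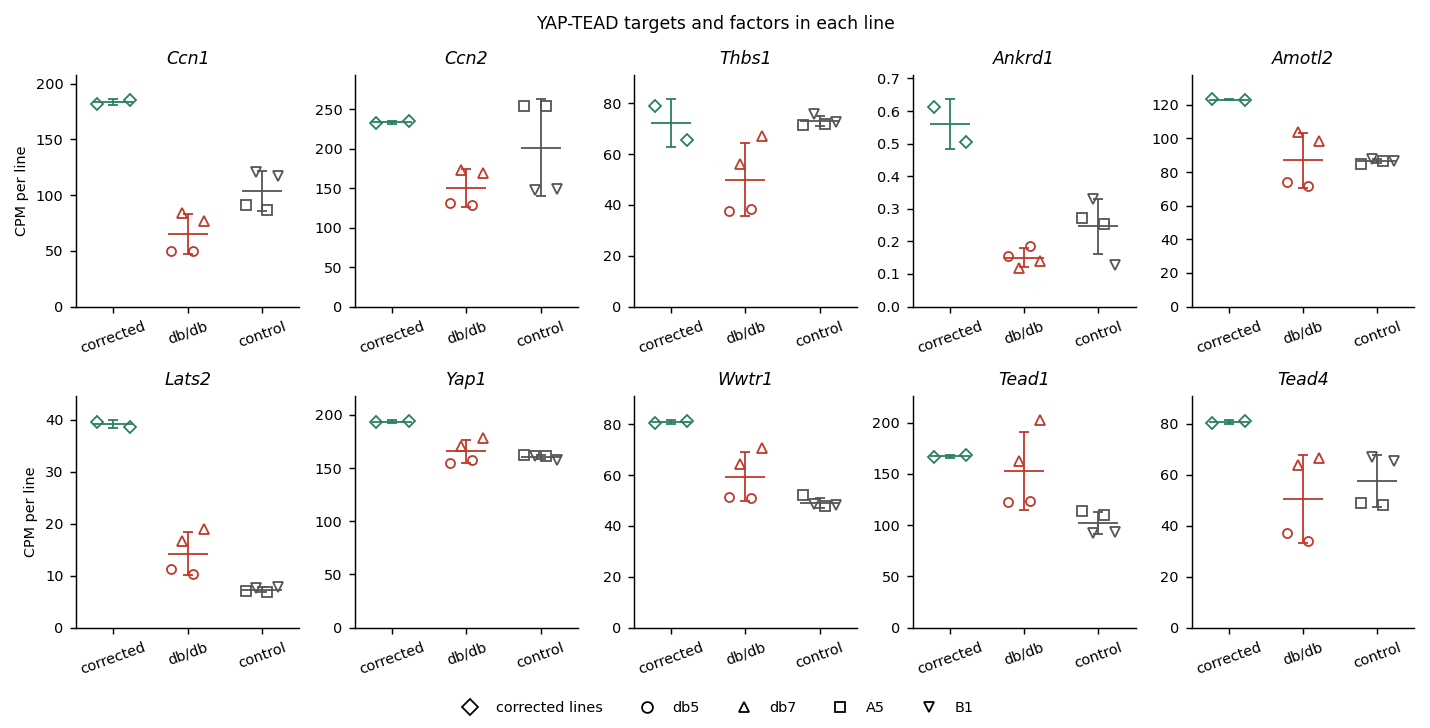
CPM of each gene (vertical axes, from 0, own scale per panel) in each of the 10 lines, with corrected lines left of db/db and control lines. Marker shapes give the name an a and a b line share, and horizontal marks with bars give the mean ± SD (n = 2, 4 and 4 lines). Ccn1, Lats2 and Ankrd1 are highest in both corrected lines, and lines that share a name lie close together.

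Ccn1 (formerly Cyr61; chr3:145646976-145649981, minus strand) encodes a secreted matrix protein and is among the most direct readouts of YAP and TEAD. Gene positions are those of GENCODE M21 on GRCm38. Ccn1 had 182 and 185 CPM in corrected lines, 49.5, 84.2, 49.4 and 76.7 CPM in the db/db lines 1 to 4, against 90.9, 120.5, 86.4 and 117 CPM in control lines 1 to 4. Every corrected line was above every control line, and every control line above every db/db line. Relative to db/db it rose by 1.499 ± 0.22 on the log2 scale (SE; adjusted p = 0.000897), and relative to control by 0.82 ± 0.22 (adjusted p = 0.0192). In db/db against control it fell by 0.68 ± 0.19 (adjusted p = 0.0362). That fall was lost when control line 2 or 4, db/db line 1 or 3, or either corrected line was left out, and its range over all alternatives was -1.02 to -0.57 with adjusted p-values of 0.000561 to 0.499. Within db/db lines, db7 had 1.63 times the Ccn1 CPM of db5.

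Ccn2 (formerly Ctgf; chr10:24595442-24598683, plus strand) encodes the related secreted protein best known from wound repair and fibrosis. Its CPM were 232 and 235 in corrected lines, 131, 174, 128 and 169 in the db/db lines 1 to 4, against 254, 148, 254 and 149 in control lines 1 to 4. The control lines split by name, A5 above and B1 below both corrected lines, and the A5 lines held the highest Ccn2 levels measured. No comparison passed the threshold: the log2 fold change was 0.63 ± 0.24 for corrected against db/db (SE; adjusted p = 0.0610), 0.21 ± 0.24 for corrected against control (adjusted p = 0.524) and -0.42 ± 0.20 for db/db against control (adjusted p = 0.170). The difference between control names, with B1 at 0.584 times the A5 level, was larger than that between the db/db and control means, at 0.747. Thus Ccn1 and Ccn2 ordered the lines differently, with B1 above A5 for Ccn1 and below it for Ccn2. The antisense transcript Gm15270 overlaps Ccn2 and averaged 0.611 CPM. Whether counting used the strand is not given in the sources used here.

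Thbs1 (chr2:118111876-118127133, plus strand), which encodes the matrix glycoprotein thrombospondin 1, had 78.8 and 65.6 CPM in corrected lines, 37.7, 56.2, 38.4 and 67.3 CPM in the db/db lines 1 to 4, against 71.4, 75.9, 71.8 and 72.8 CPM in control lines 1 to 4. Summed per line, all 4 db/db lines lay below all 4 control lines. The log2 fold change of -0.55 ± 0.17 for db/db against control missed the threshold (SE; adjusted p = 0.0548), and passed it under DESeq2 and under limma-trend. For corrected against db/db it was 0.53 ± 0.21 (adjusted p = 0.0677) and for corrected against control -0.01 ± 0.21 (adjusted p = 0.964). Duplicate libraries bear on this gene: the second library had more Thbs1 than the first in 7 of 7 db/db and control lines, by 1.09 to 1.54 times (median 1.31). Ccn1 went the other way, lower in the second library in 7 of 7 lines at 0.903 to 0.968 times the first. What the duplicate numbers stand for is not stated. Control line 1 had only a first library, so line sums mix the numbers unevenly. Within each number the groups overlapped for Thbs1. Among first libraries db/db line 4 had 59.88 CPM and control line 4 had 57.17 CPM. Among second libraries db/db line 4 had 75.88 CPM and control line 3 had 74.95 CPM. With each library as a sample, Thbs1 fell in db/db against control by 0.54 without a term for the number (log2; adjusted p = 0.0103) and by 0.58 with it (adjusted p = 0.00671), fits that count duplicates of a line as separate samples.

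Ankrd1 (chr19:36111961-36120099, minus strand), a stress-induced ankyrin repeat protein of heart and muscle and a classic YAP target elsewhere, was barely expressed. It had 0.613 and 0.505 CPM in corrected lines, from 47 and 35 estimated counts, 0.118 to 0.186 CPM in the db/db lines, from 7 to 12 counts, and 0.128 to 0.331 CPM in control lines, from 9 to 23 counts. Both corrected lines were above all others, and db/db and control lines overlapped. It rose by 1.88 ± 0.34 (log2, SE; adjusted p = 0.00238) against db/db and by 1.19 ± 0.33 against control (adjusted p = 0.0207). For db/db against control the log2 fold change was -0.69 ± 0.32 (adjusted p = 0.155). Per kilobase of exons, Ankrd1 had 0.194 CPM in corrected lines while Ccn1 had 90.9 CPM, so the targets spanned a wide range of levels.

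Lats2 (chr14:57689662-57758388, minus strand) encodes a kinase that phosphorylates YAP and TAZ and is itself induced by YAP, a negative feedback. It had the largest ratio between group means among the 10 genes. It had 39.7 and 38.7 CPM in corrected lines, 11.2, 16.7, 10.2 and 18.9 CPM in the db/db lines 1 to 4, against 7.08, 7.58, 6.79 and 7.91 CPM in control lines 1 to 4. The 3 groups did not overlap, with control lowest. Lats2 rose by 1.46 ± 0.21 in corrected against db/db (log2, SE; adjusted p = 0.000776), by 2.42 ± 0.21 in corrected against control (adjusted p = 8.62e-05) and by 0.96 ± 0.18 in db/db against control (adjusted p = 0.00802). Its rise in db/db over control was called in each fit that left out 1 control or db/db line. Such a fit keeps the other line of the same name, so it does not show whether the rise depends on a name. With shared names as units in edgeR the rise was 0.96 and was not called (adjusted p = 0.178). Lats2 and Ccn1, both targets, therefore stood on opposite sides of control in the db/db lines. Its relative Lats1, also a LATS kinase, had 10.1 to 14.7 CPM over all lines and did not pass the threshold in any of the 3 comparisons.

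Amotl2 (chr9:102716672-102733418, plus strand) encodes an angiomotin-like protein that binds YAP at cell junctions. It had 123 CPM in both corrected lines, 74.2, 103.6, 71.8 and 98.4 CPM in the db/db lines 1 to 4, against 84.7, 87.5, 86.5 and 86.4 CPM in control lines 1 to 4. The control lines differed by little, and db5 lay below and db7 above all of them. Amotl2 rose by 0.50 ± 0.14 against db/db (log2, SE; adjusted p = 0.0168) and by 0.51 ± 0.14 against control (adjusted p = 0.0168). The db/db and control means were 87.0 ± 16.3 and 86.3 ± 1.17 CPM (SD, n = 4 each).

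**Figure D2:**
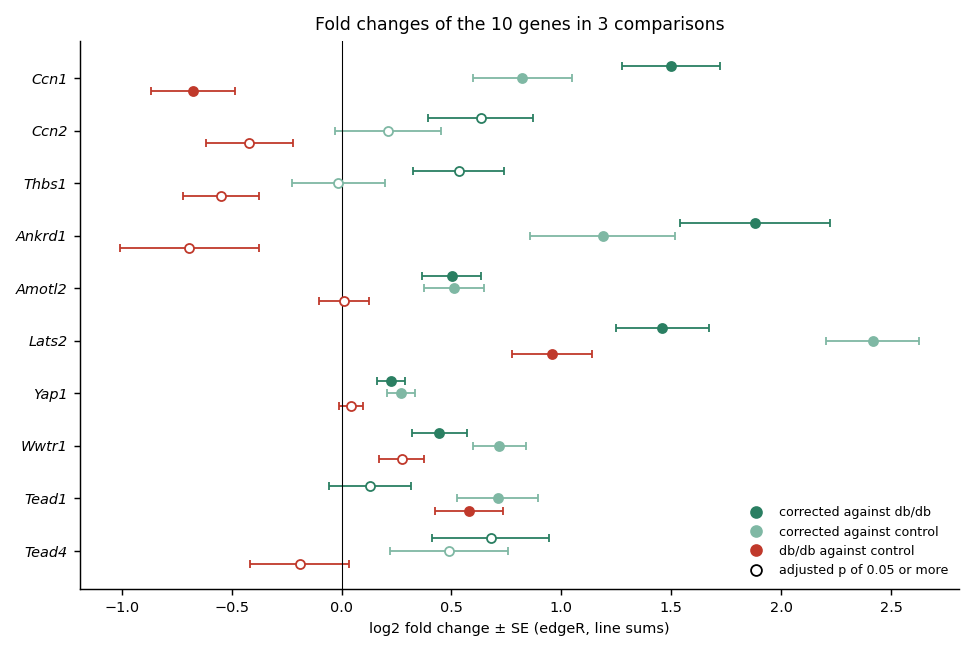
Log2 fold change ± SE (horizontal axis) of the 10 genes from edgeR on line sums, for corrected against db/db, corrected against control and db/db against control. Filled points have an adjusted p under 0.05, and open points do not. Lats2 lies right of 0 in all 3 comparisons, while Ccn1 lies right of 0 in both comparisons of corrected lines and left of it in db/db against control.

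Yap1 (chr9:7931999-8004596, minus strand) varied least of the 10 genes relative to its level. It had 193 and 194 CPM in corrected lines, 155 to 179 CPM in the db/db lines and 158 to 163 CPM in control lines. Both corrected lines were above all others, and db/db lines lay on both sides of the control lines. The rise was small, 0.23 ± 0.06 against db/db (log2, SE; adjusted p = 0.0208) and 0.27 ± 0.06 against control (adjusted p = 0.0106), and db/db against control gave 0.04 ± 0.05 (adjusted p = 0.605).

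Wwtr1 (chr3:57455649-57575910, minus strand), which encodes TAZ, had 80.3 and 81.3 CPM in corrected lines, 51.3, 64.4, 51.2 and 70.5 CPM in the db/db lines 1 to 4, against 52.0, 48.6, 47.8 and 48.0 CPM in control lines 1 to 4. The db7 lines were above all control lines, and the db5 lines were among them. Wwtr1 rose by 0.45 ± 0.12 against db/db (log2, SE; adjusted p = 0.0184) and by 0.72 ± 0.12 against control (adjusted p = 0.00209). Its 0.27 ± 0.10 in db/db against control missed the threshold (adjusted p = 0.0940). Per kilobase of exons Wwtr1 made up 44.7% ± 0.064 of the summed Yap1 and Wwtr1 level in corrected lines (SD, n = 2), 40.8% ± 2.35 in the db/db lines and 37.2% ± 0.752 in control lines (n = 4 each). Yap1 was thus the larger part in every group.

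The TEAD factors bind DNA and differ in the tissues that use them, with Tead2 and Tead4 known from early mouse embryos and Tead1 from heart and many adult tissues. Tead1 (chr7:112679318-112906807, plus strand) had 166 and 168 CPM in corrected lines, 122, 163, 124 and 202 CPM in the db/db lines 1 to 4, against 113, 91.9, 109.6 and 93.6 CPM in control lines 1 to 4. All control lines were below all others, and 1 db/db line, db/db 4, was above both corrected lines. Tead1 rose by 0.58 ± 0.15 in db/db against control (log2, SE; adjusted p = 0.0294) and by 0.71 ± 0.18 in corrected against control (adjusted p = 0.0153), and corrected against db/db gave 0.13 ± 0.19 (adjusted p = 0.617). The rise in db/db was lost without control line 2 or 4 or db/db line 2, and with each line's chromosome median taken off (limma-trend, 0.57, adjusted p = 0.0528).

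Tead4 (chr6:128224288-128300823, minus strand) had 80.0 and 81.0 CPM in corrected lines, 37.0, 63.7, 34.0 and 66.7 CPM in the db/db lines 1 to 4, against 48.9, 67.0, 48.2 and 65.5 CPM in control lines 1 to 4. Both corrected lines were above all others, but the spread by name was wide, with db7 at 1.84 times db5 and B1 at 1.36 times A5. No comparison passed, with 0.68 ± 0.27 for corrected against db/db (log2, SE; adjusted p = 0.0724), 0.49 ± 0.27 for corrected against control (adjusted p = 0.189) and -0.19 ± 0.22 for db/db against control (adjusted p = 0.591).

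The other two factors of the family were set beside them. Tead2 had 86.7 and 81.7 CPM in corrected lines, 62.3, 49.3, 59.2 and 44.4 CPM in the db/db lines 1 to 4, against 74.1, 87.3, 78.5 and 83.9 CPM in control lines 1 to 4. It fell by 0.59 ± 0.11 in db/db against control (log2, SE; adjusted p = 0.00618) and rose by 0.65 ± 0.13 in corrected against db/db (adjusted p = 0.00366), the reverse of Tead1 in the db/db lines. Tead3 was low everywhere, at 8.33 and 8.53 CPM in corrected lines, 1.77 to 3.09 CPM in the db/db lines and 2.09 to 4.59 CPM in control lines, and rose in corrected lines against both db/db (1.80 ± 0.31, adjusted p = 0.00205) and control (1.33 ± 0.31, adjusted p = 0.0103). Per kilobase of exons the 4 factors summed to 53.5 ± 0.431 CPM in corrected lines (SD, n = 2), 36.8 ± 5.67 CPM in the db/db lines and 40.9 ± 3.38 CPM in control lines (n = 4 each). Tead1 made up 23.0% ± 0.382 of that sum in corrected lines, 30.3% ± 3.09 in the db/db lines and 18.6% ± 3.51 in control lines. Tead4 was the largest part in both corrected lines, at 41.3% and 42.3%. In control lines Tead2 was the largest part in the A5 lines, at 40.99% and 42.87%, and Tead4 in the B1 lines, at 42.03% and 42.06%.

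**Figure D3:**
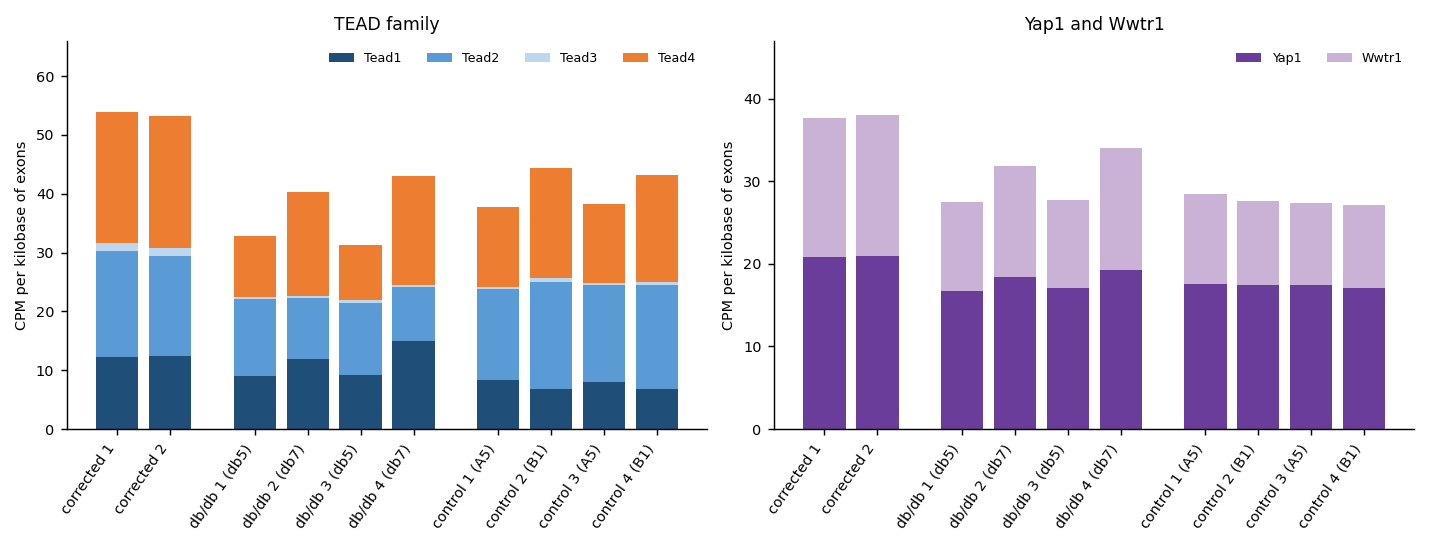
Levels per kilobase of exons (CPM per kilobase, vertical axes from 0) stacked for the 4 TEAD factors (left) and for Yap1 and Wwtr1 (right) in each line. Both stacks are tallest in the 2 corrected lines, and Tead1 takes its largest part in the db/db lines.

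Ranked by level, the names ran db5, db7, A5, B1, corrected (low to high) for Ccn1 and A5, B1, db5, db7, corrected for Lats2. Between the names within db/db, 9 of the 10 genes were higher in db7 than in db5, by 1.11 to 1.84 times, and Ankrd1 was lower at 0.759 times. For Ccn1 and Lats2 the lines of each name did not overlap with those of the next, but each name has only its a and b line behind it, so no test of names was made. The corrected lines were above db5 for all 10 genes (1.24 to 3.71 times) and above db7 for 9 of 10, Tead1 being the exception at 0.916 times. The shares of all genes that differ this way between names were not counted. The counts by name therefore do not show a pattern particular to the 10 genes.

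Of 28 further Hippo pathway genes, which include Tead2 and Tead3, 2 rose and 2 fell in db/db against control, 7 rose and 4 fell in corrected against db/db, and 5 rose and 4 fell in corrected against control. Their median log2 fold changes were 0.02, 0.03 and 0.08, beside medians over all genes of -0.00, 0.02 and -0.01. Of all genes 7.41% rose and 9.5% fell in the first comparison, 18.7% and 18.0% in the second, and 16.2% and 17.0% in the third. Map4k4, a kinase upstream of LATS, fell by 0.50 ± 0.09 in corrected against db/db (log2, SE; adjusted p = 0.00237) and by 0.44 ± 0.09 against control (adjusted p = 0.00515). Taok3, a kinase of the TAO family, fell by 0.72 ± 0.10 in db/db against control (adjusted p = 0.00149) and by 0.87 ± 0.12 in corrected against control (adjusted p = 0.000853). Of the WWC scaffold proteins, Wwc2 rose by 0.55 ± 0.10 in corrected against db/db (adjusted p = 0.00290) and by 0.49 ± 0.10 against control (adjusted p = 0.00648), and Wwc1 rose by 0.22 ± 0.06 in db/db against control (adjusted p = 0.0291). With either of the corrected lines left out, that group holds 1 line. Fewer genes of this list were then called in both comparisons of corrected lines, and the same held over all genes.

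A list of 20 further YAP target genes described in other cells had 19 tested members, all but Foxf2. In corrected against db/db 7 rose and 0 fell, with a median log2 fold change of 0.34, where 18.7% of all genes rose and 18.0% fell, with a median of 0.02. In db/db against control 0 rose and 7 fell, with a median of -0.36, where 7.41% of all genes rose and 9.5% fell, with a median of -0.00. In corrected against control 4 rose and 3 fell, with a median of 0.13, where 16.2% of all genes rose and 17.0% fell, with a median of -0.01. Myof, a membrane repair protein, had 12.3 ± 1.08 CPM in corrected lines (SD, n = 2), 4.03 ± 1.43 CPM in the db/db lines and 10.5 ± 0.737 CPM in control lines (n = 4 each), a rise of 1.61 ± 0.26 against db/db (log2, SE; adjusted p = 0.00129) and a fall of db/db against control, -1.39 ± 0.22 (adjusted p = 0.00363). Axl, a receptor tyrosine kinase, followed the same order, with 9.33 ± 1.79 CPM in corrected lines, 4.30 ± 0.766 CPM in the db/db lines and 7.18 ± 0.371 CPM in control lines (adjusted p = 0.00101 for corrected against db/db and 0.00861 for db/db against control). Nuak2, a kinase of the AMPK family, rose by 1.26 ± 0.22 in corrected against db/db (adjusted p = 0.00213) and fell in db/db against control, -0.92 ± 0.19 (adjusted p = 0.0112). Fjx1 had the largest fall of the list in db/db against control, -1.76 ± 0.31 (adjusted p = 0.00532). Arhgef17, Crim1 and Dock5 rose in corrected lines against both db/db and control, by 0.61 to 0.94 on the log2 scale. With shared names as units the list had 5, 1 and 0 called genes for corrected against db/db, corrected against control and db/db against control, where 15.5%, 12.1% and 0.161% of all genes were called. With either of the corrected lines left out, that group holds 1 line, and fewer genes were called against db/db, in this list and over all genes. Ptpn14 is on this list and on that of the Hippo pathway.

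**Figure D4:**
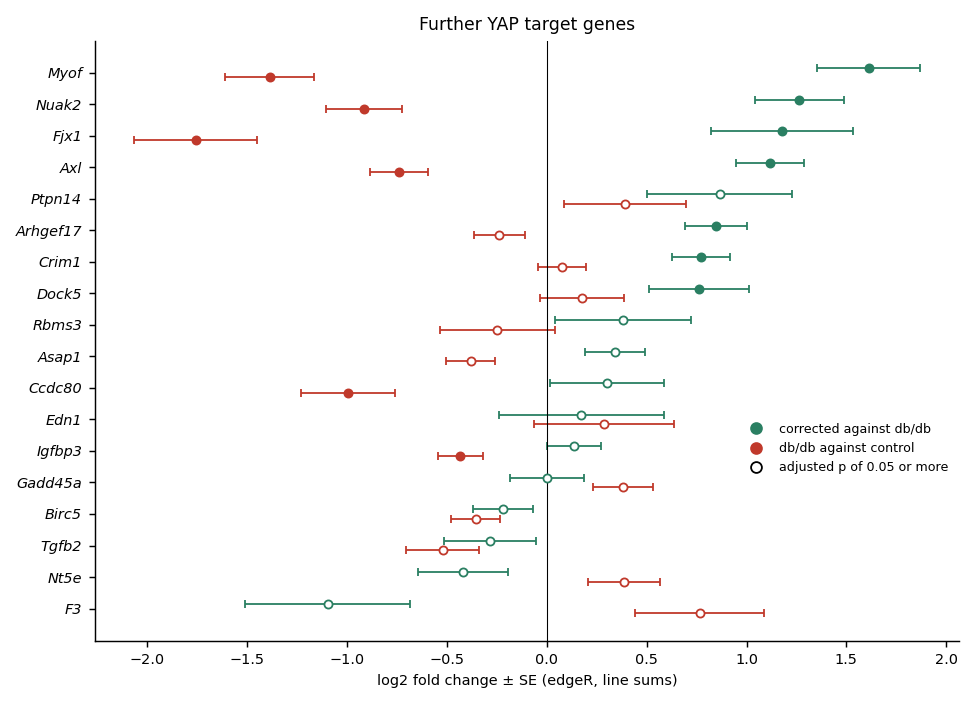
Log2 fold change ± SE (horizontal axis, edgeR on line sums) of 18 of the 19 tested genes of the list of further YAP targets, for corrected against db/db and db/db against control. Filled points have an adjusted p under 0.05. All 7 filled points of corrected against db/db lie right of 0 and all 6 of db/db against control lie left of it.

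Actin genes and targets of SRF, a factor that responds to actin and shares targets such as Ccn1 with YAP, were read beside the 10 genes. Of 18 genes, 3 rose and 2 fell in corrected against db/db, 3 rose and 4 fell in corrected against control, and 3 rose and 3 fell in db/db against control. The counts in both comparisons of corrected lines were near the shares of all genes (18.7% and 18.0% against db/db, 16.2% and 17.0% against control), and in db/db against control 7.41% of all genes rose and 9.5% fell. The list's median log2 fold changes were -0.15, -0.14 and 0.03 in these comparisons, beside 0.02, -0.01 and -0.00 over all genes. Tagln2, an actin-binding protein, fell by 1.20 ± 0.11 in db/db against control (log2, SE; adjusted p = 0.000243) and rose by 1.04 ± 0.13 in corrected against db/db (adjusted p = 0.000457). Cnn2, a calponin, did the reverse, a rise of 0.57 ± 0.07 (adjusted p = 0.000903) and a fall of 0.50 ± 0.09 (adjusted p = 0.00188). Actg1, cytoplasmic gamma actin, fell by 0.63 ± 0.12 in corrected against db/db (adjusted p = 0.00356). Vcl, the focal adhesion protein vinculin, rose by 0.66 ± 0.11 in corrected against control (adjusted p = 0.00219). It also rose by 0.33 ± 0.10 in db/db against control (adjusted p = 0.0419) and by 0.34 ± 0.11 in corrected against db/db (adjusted p = 0.0437). In corrected against control Actg1 fell by 0.50 ± 0.12 (adjusted p = 0.0122) and Mrtfa by 0.50 ± 0.13 (adjusted p = 0.0139). Cnn1, at 0.593 and 1.115 CPM on average, fell there by 0.91 ± 0.24 (adjusted p = 0.0154).

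Ccn1 is also known as an immediate early gene, switched on within minutes of handling or serum, so 16 such genes were read beside it. In corrected against db/db 2 rose and 4 fell, in corrected against control 1 rose and 9 fell, and in db/db against control 1 rose and 6 fell, beside the shares and medians of all genes given for the actin list. Their median log2 fold changes were -0.21, -0.51 and -0.25. Their summed level was 2232 to 2245 CPM in corrected lines, 2445 to 2943 CPM in the db/db lines and 2878 to 3418 CPM in control lines. In corrected against db/db the sum was lower while Ccn1 was higher, and in db/db against control, at 2738 and 3170 CPM on average, both were lower. The part of handling in the Ccn1 values was not tested. The most abundant genes of the list, Egr1 and Myc, averaged 507 and 389 CPM in corrected lines, 621 and 724 CPM in the db/db lines, and 806 and 599 CPM in control lines. Myc is also carried by the reprogramming vector, and the table does not separate the copies.

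Markers of other cell types moved with some of these differences, and their part in the results was not tested. Fibroblast markers, 10 listed and 9 tested, summed to 161 to 206 CPM in corrected lines, 115 to 177 CPM in the db/db lines and 230 to 319 CPM in control lines, mostly Col1a1 and Col1a2. Of them 3 rose and 0 fell in corrected against db/db, 0 rose and 1 fell in corrected against control, and 0 rose and 7 fell in db/db against control, where the shares of all genes were 18.7% and 18.0%, 16.2% and 17.0%, and 7.41% and 9.5%. The fibroblast markers Dcn and Lum were at or near 0, at most 0.325 and 0.0722 CPM. Primitive endoderm markers summed to 509 to 518 CPM in corrected lines, 359 to 459 CPM in the db/db lines and 457 to 547 CPM in control lines, mostly Sparc and Lama1. Of 8 tested, 6 rose and 0 fell in corrected against db/db, and 3 rose and 1 fell in corrected against control. In db/db against control 1 rose and 3 fell, beside the shares of all genes just given. Sparc averaged 447, 336 and 401.5 CPM in corrected, db/db and control lines. Lama1 was lowest in corrected lines, at 50.7, 61.1 and 90.8 CPM. The defining factors Gata6 and Sox17 had at most 2.60 and 1.55 CPM. Trophectoderm markers summed to 57.8 to 58.7 CPM in corrected lines, 49.1 to 76.7 CPM in the db/db lines and 42.9 to 67.5 CPM in control lines, ranges that overlap, and mesoderm markers to 4.36 to 5.14 CPM in corrected lines, 2.02 to 2.67 CPM in db/db and 3.52 to 3.90 CPM in control lines. Of 4 tested, 3 rose and 0 fell in corrected against db/db, and 2 rose and 0 fell in corrected against control. In db/db against control 0 rose and 2 fell. Snai1 averaged 3.31, 1.82 and 3.11 CPM in corrected, db/db and control lines, and Hand1 0.759, 0.0900 and 0.261 CPM. Pluripotency markers summed to 5662 to 5678 CPM in corrected lines, 6232 to 6656 CPM in the db/db lines and 5801 to 6359 CPM in control lines. Of 8 tested, 1 rose and 4 fell in corrected against db/db, and 1 rose and 3 fell in corrected against control. In db/db against control 2 rose and 1 fell. Dppa5a averaged 1622, 1863 and 1766 CPM. That list holds Pou5f1 and Sox2, which the reprogramming vector also carries. In bulk RNA, fewer cells of a type and less RNA per cell cannot be told apart.

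Ccn1 and Wwtr1 lie on chromosome 3, and Tead4 on chromosome 6, where the median gene also differed between lines. The median deviation of chromosome 3 genes from their mean over lines (log2, 422 genes) was -0.21 and -0.20 in corrected lines, 0.04, 0.35, 0.05 and 0.37 in the db/db lines 1 to 4, against -0.03, -0.19, -0.05 and -0.18 in control lines 1 to 4. With each line's chromosome median taken off, limma-trend gave a Ccn1 log2 fold change of 1.95 for corrected against db/db and -1.02 for db/db against control (adjusted p = 0.000128 and 0.00300), compared with 1.54 and -0.70 without that step. Wwtr1 then gave 0.87 for corrected against db/db (adjusted p = 4.20e-05) and -0.06 for db/db against control (adjusted p = 0.530), compared with 0.46 and 0.26. On chromosome 6 (401 genes) the median was 0.21 in both B1 lines and between -0.07 and -0.02 in all others, and Tead4 in B1 lines came to within 0.03 of its mean over lines once this was taken off. Copy number was not measured, and the cause of these medians was not tested.

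**Figure D5:**
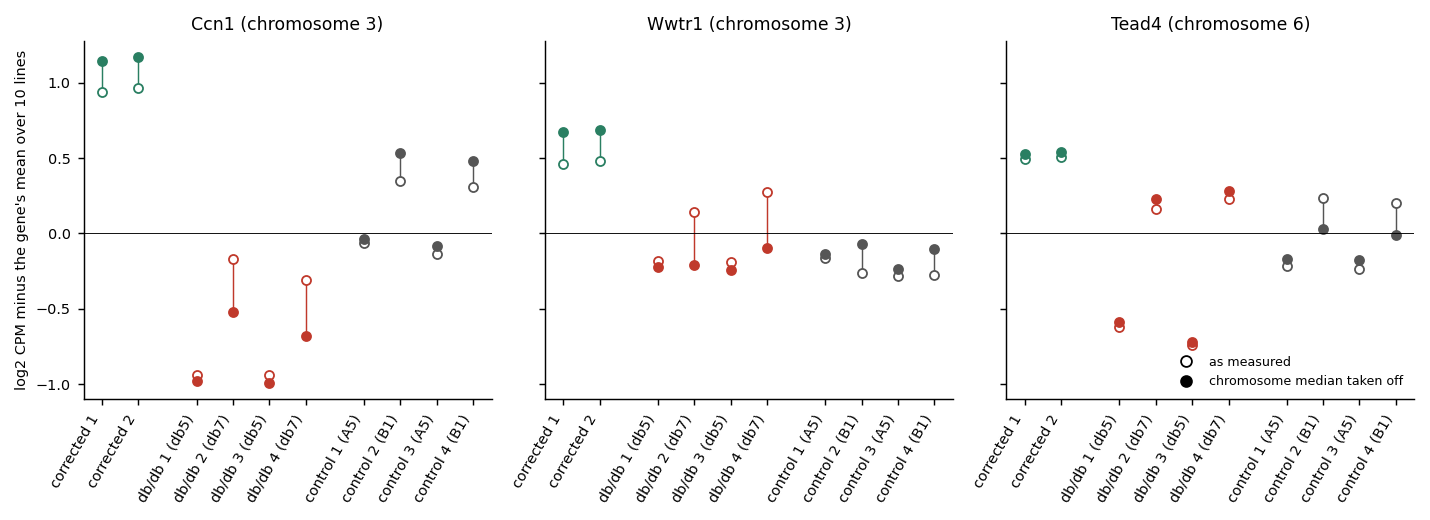
Log2 CPM minus the gene's mean over 10 lines (vertical axis) for Ccn1 and Wwtr1 on chromosome 3 and Tead4 on chromosome 6, in each line. Open points are as measured, and filled points have that line's median deviation of the chromosome taken off. The correction lowers Wwtr1 in both db7 lines to -0.21 and -0.10 and widens the gap of Ccn1 between corrected and db/db lines.

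Genes with a like pattern were sought among 9890 genes with at least 5 CPM on average, by the root mean square difference of centred log2 CPM over the 10 lines, as a description. Nearest to Ccn1 were Elobl (0.108), Efs (0.148), Syde1 (0.150), Zfp362 (0.152) and Inf2 (0.154). Elobl averaged 25.6 CPM in corrected lines, 8.77 CPM in the db/db lines and 15.1 CPM in control lines. Nearest to Ccn2 were Dennd6b (0.104), Tmem106a (0.105), Slc22a5 (0.126), Serpine2 (0.127) and Camkv (0.137). Among the 10 genes themselves Tead4 was nearest to Ccn1 (0.317) and Lats2 farthest (0.793), and Ccn1 and Ccn2 stood 0.510 apart.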

How the data were processed

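RNA of 19 libraries from 10 lines was made into stranded TruSeq mRNA libraries, according to the protocols in the labels. The values the authors deposited are estimated counts for each gene. The submitters' processing notes name kallisto and GRCm38; its version, index and strand setting are not stated in the sources used. Of 52143 Ensembl identifiers, 51250 matched GENCODE M21 and carried 99.4% of the counts.

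Counts were rounded per library and summed per line, since the labels do not say that duplicates came from separate cultures. All 10 lines (2 corrected, 4 db/db, 4 control) entered 1 fit, with filterByExpr, TMM scaling and edgeR 4.0.16's quasi-likelihood test in R 4.3.3, Benjamini-Hochberg adjustment over all tested genes and a threshold of 0.05. CPM are TMM-scaled. Log2 CPM for chromosome medians (genes of at least 10 CPM) and likeness had a prior count of 2. Levels per kilobase used the union of a gene's exons in GENCODE M21. Promoter sequences came from RefSeq (GRCm38.p6). Where transcripts of related genes are alike, estimated counts share reads out between them, so such genes are less certain. The code was tested on simulated counts.

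The genes and lists were chosen with earlier results of these data known. Named were all 10 genes, Tead2 and Tead3, up to 4 called genes of lowest p per list and comparison, and the 2 most abundant markers of a list; 2 called genes of the lists are counted there but not reported here. Lats1, Dcn, Lum, Gata6 and Sox17 were added outside that rule after they were seen. So were the values of Crim1 and Dock5 against db/db, of Nuak2 in db/db against control, and of Vcl in both comparisons with db/db lines. Alternatives were DESeq2 1.42.0 and limma 3.58.1 (limma-trend), other scalings, filters and replicate units, and leaving out lines; counts over the lists under these were added after the data were seen. Tables and figures used Python 3.11.15, pandas 2.3.3 and matplotlib 3.10.9.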

Additional observations from a re-analysis of the deposited data

How the results depend on the processing

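Calls depended on the replicate unit. With shared names as units, 3281, 2547 and 34 genes and 3, 2 and 0 of the 10 were called in corrected against db/db, in corrected against control and in db/db against control, and with both corrected lines as 1 unit 0, 4 and 6 genes and 0, 0 and 0 of the 10 (3833, 3407 and 2201 genes and 3, 5 and 3 of the 10 at an unadjusted p under 0.05, in edgeR). In place of 3332 genes and 3 of the 10, db/db against control gave 7247 genes and 6 of the 10 with each library as a sample and no block, and 6188 genes and 5 of the 10 with the duplicate number as a replicate block, where Ankrd1 was not tested. Deviations of same-numbered libraries of control and db/db lines correlated at 0.0119 to 0.531 over 12 pairs of lines, 11 of them over 0.1. As 1 pair was not over 0.1 and no label says what the numbers mark, they were not taken as a pairing, though a shift shared by number is visible. The corrected libraries carry no number. In db/db against control the 4 called Hippo pathway genes became 7 under DESeq2 or without control line 1, 11 and 9 with each library as a sample without and with the block, and 0 with shared names, and the 7 further YAP targets became 14 and 14 with libraries as samples. The compared groups alone gave 2385 genes and 1 of the 10 (Lats2) in db/db against control. They gave 7096 genes and 7 of the 10 in corrected against db/db, and 7774 genes and 8 of the 10 in corrected against control. Leaving out 1 line gave 1991 to 3211 genes and 1 to 4 of the 10 in db/db against control, 3113 to 7638 and 3 to 8 in corrected against db/db, and 2377 to 7236 and 2 to 7 in corrected against control. Without the second library of db/db line 2, 7230 genes and 7 of the 10 were called in corrected against db/db. That setting gave 6520 genes and 7 of the 10 in corrected against control, and 3441 genes and 4 of the 10 in db/db against control. Library size alone shifted the median of all genes to 0.19 in corrected against db/db and 0.12 in corrected against control. In the first of these 9 of the 10 then rose, and 7032 of all genes were called in either direction. Values near 0 changed sign: Amotl2 in db/db against control was -0.031 by library size, -0.007 by limma-trend, -0.053 with chromosome medians removed and -0.082 to 0.094 without 1 line, Yap1 and Wwtr1 there were -0.005 and -0.055 with chromosome medians removed, and Thbs1 in corrected against control was 0.115 by library size, 0.004 with at least 1 CPM in every line of a group and -0.142 to 0.118 without 1 line. The cause of these changes was not tested. Ankrd1 is limited by depth, with 7 to 47 counts a line.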
